A study of Homo sapiens with 10 samples.

Results

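A set of 50 genes stood at different levels in mesenchymal PC3 cells carrying OVOL1 or OVOL2 than in the same cells without them, while their level in the epithelial PC3 line lay close to that of the mesenchymal line. The genes were chosen by measured values in the 3 gene tables that have PC3-EMT14 as the reference. A ratio was formed for each gene as the FPKM of the other line plus 0.1 over the FPKM of PC3-EMT14 plus 0.1, where FPKM is the number of fragments per kilobase of transcript, scaled to the size of the library. A gene was taken when the larger FPKM of each pair was at least 1, when the OVOL1 and OVOL2 ratios were both at least 1.5 or both at most 66.7%, and when the PC3-Epi ratio lay between 80% and 125%, a span called the PC3-Epi range below. Of 23170 genes in the tables, 12068 passed the floor of 1 FPKM and 50 met the whole rule, 30 of them higher and 20 lower in both OVOL lines. Because the rule used these ratios, the levels below are a description and not a test.

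RNA sequencing was carried out on 10 samples of PC3, an established human prostate cancer cell line, in 4 groups. PC3-Epi (2 samples) is an epithelial subpopulation picked from luciferase-positive PC3 colonies, and PC3-EMT14 (3 samples) is a mesenchymal subpopulation obtained from PC3-Epi after co-culture with macrophages, so all 4 groups carry the luciferase vector. The other groups were made from PC3-EMT14 by lentiviral overexpression of one OVOL factor followed by drug selection, and are named PC3-EMT14-OVOL1, with 3 samples, and PC3-EMT14-OVOL2, with 2. The labels name no PC3-EMT14 group with an empty lentivirus, so the effect of the OVOL factor and that of transduction and selection cannot be told apart in these comparisons. Per the paper's methods the OVOL1 construct was purchased, whereas OVOL2 was cloned into a different lentiviral vector that adds a V5 tag. Factor and construct therefore cannot be told apart when the OVOL lines are compared with each other. Each group is a derived line from 1 parental cell line, and nothing in the labels says that its samples were separate isolates. The paper describes the samples of each line as at least 2 biological replicates, and does not say whether they were separate isolates.

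The deposited tables give 1 pooled value per group, so no spread between samples can be given for any ratio below, and the sequencing depth is unknown. The tables also hold the tests that the authors ran on these comparisons, which were left unused, and no test was made here. A ratio inside the PC3-Epi range therefore does not show that a gene was equal in the 2 lines. The value of PC3-EMT14 differed a little between tables, since each table was normalised separately. For the 50 genes it was 0.99 times as high in the OVOL2 table and 1.02 times as high in the PC3-Epi table as in the OVOL1 table (medians), and the PC3-EMT14 values printed here are those of the OVOL1 table. As a check of the labels, OVOL1 was at 0.0238 FPKM in PC3-EMT14, 11.3 in PC3-EMT14-OVOL1 and 4.25 in PC3-Epi, and OVOL2 was at 0.374, 831 in PC3-EMT14-OVOL2 and 9.91 in PC3-Epi. CDH1, which encodes E-cadherin, was at 0.981 FPKM in PC3-EMT14, 16.2 and 39.3 in the OVOL1 and OVOL2 lines and 50.6 in PC3-Epi. Of 14 macrophage markers, CD68 alone reached 1 FPKM in any line, with the list summing to 53.4, 51.8, 58.6 and 13.7 FPKM in PC3-EMT14, the OVOL1 line, the OVOL2 line and PC3-Epi. CD68 is a lysosomal protein that many cells make, and CD14, CD163, CSF1R and PTPRC were below 0.1 FPKM in all 4 lines. Of 6 fibroblast markers COL1A1 alone reached 1 FPKM.

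OVOL1 and OVOL2 are zinc finger transcription factors of epithelia that act mainly as repressors. They are known for holding down factors such as ZEB1 that drive the epithelial to mesenchymal transition, in which epithelial cells lose their junctions and gain motility. The 50 genes described here were selected for differing with either factor while staying within a set range between the epithelial and the mesenchymal line. Whether any of them belongs to that program was not tested.

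Promoter sequences of cytokine genes of the set are shown first, because IL23A and CXCL1 had among the highest OVOL ratios of the set and because all 3 promoters hold a match to the NF-kappaB consensus, the DNA motif bound by the NF-kappaB family of inflammatory transcription factors. They run 5′ to 3′ from 250 bases before to 50 bases after the gene start, from RefSeq on GRCh38.p14, and the capitals mark the match. All 3 lie on the plus strand: IL23A at chr12:56338634-56338933, CXCL1 at chr4:73869143-73869442 and IL12A at chr3:159988585-159988884.
IL23A: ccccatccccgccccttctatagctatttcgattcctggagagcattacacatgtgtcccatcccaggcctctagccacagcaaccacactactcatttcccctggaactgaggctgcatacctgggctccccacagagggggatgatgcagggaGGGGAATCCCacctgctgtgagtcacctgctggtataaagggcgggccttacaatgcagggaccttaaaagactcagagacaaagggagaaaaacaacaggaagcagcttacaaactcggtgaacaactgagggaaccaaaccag
CXCL1: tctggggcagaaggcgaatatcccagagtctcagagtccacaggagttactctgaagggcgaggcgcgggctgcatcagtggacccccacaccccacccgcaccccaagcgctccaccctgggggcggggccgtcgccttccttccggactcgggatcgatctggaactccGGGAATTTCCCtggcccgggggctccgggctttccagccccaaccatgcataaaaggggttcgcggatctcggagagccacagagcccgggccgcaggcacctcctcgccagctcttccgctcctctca
IL12A: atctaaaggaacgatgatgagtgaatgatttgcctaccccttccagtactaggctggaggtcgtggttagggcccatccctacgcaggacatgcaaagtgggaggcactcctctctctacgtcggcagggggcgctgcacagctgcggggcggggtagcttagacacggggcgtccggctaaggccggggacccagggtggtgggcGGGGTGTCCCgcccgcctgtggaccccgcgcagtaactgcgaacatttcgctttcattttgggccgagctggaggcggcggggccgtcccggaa
The match began 95 bases before the gene start in IL23A and 44 bases before it in IL12A, and in CXCL1 a pair of overlapping matches began 79 and 78 bases before it.

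A promoter was found in the RefSeq table for 18 of the 30 higher genes and 13 of the 20 lower genes. The NF-kappaB consensus, read on both strands, was in 5 of the 18 (IL23A, CXCL1, IL12A, RAB3IL1 and CNNM1), in 0 of the 13, and in 10.8% of all 27305 promoters of that length. CACCTG, the E-box bound by ZEB and SNAIL factors, was in 7 of the 18 and 2 of the 13 promoters, and in 20.6% of all. The 7 were IL23A, ZC3H12A, TMEM61, MNX1, CNNM1, ADAM8 and TMEM117, and the 2 were GMPR and OBSL1. CCGTTA, the core of the OVOL site, was in 1 of the 18 (TMEM61), in 0 of the 13 and in 3.15% of all, and the longer OVOL2 consensus, part of whose matches overlap the core, was in none of the 31 promoters and in 1.02% of all. TGANTCA, the AP-1 site, was in 2 of the 18 (IL23A and CPA4), 1 of the 13 (C5orf13) and 7.76% of all. These are letter matches in short windows, and no binding was measured.

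Few genes that differed with both OVOL factors stood inside the PC3-Epi range. Of the 12068 genes past the floor, 385 (3.19%) were at least 1.5-fold higher and 349 (2.89%) at most 66.7% of PC3-EMT14 in both OVOL lines. The PC3-Epi range held 48.0% of all genes past the floor, 7.79% of the 385 and 5.73% of the 349. For 630 of the 734 OVOL-responsive genes PC3-Epi lay outside the range on the same side as the OVOL lines, and for 54 on the opposite side. All 3 ratios share the PC3-EMT14 libraries as denominator, and so these shares are a description.

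**Figure D1:**
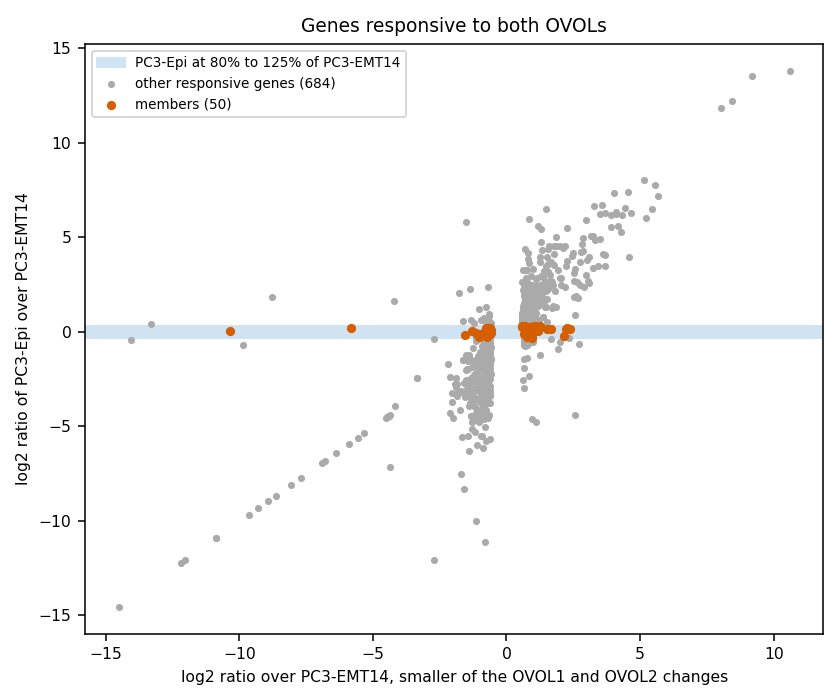
Log2 ratio of PC3-Epi over PC3-EMT14 (vertical) against the smaller of the OVOL1 and OVOL2 log2 ratios over PC3-EMT14 (horizontal), 1 point per gene, for the 734 genes higher or lower in both OVOL lines. The 50 members fill the shaded band of PC3-Epi ratios from 80% to 125%, and the 684 other genes lie above or below it, mostly on the side of their OVOL ratios.

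Among the 30 higher genes the median ratio was 1.82 in the OVOL1 line and 2.36 in the OVOL2 line, against 0.997 and 0.968 over all genes past the floor. The OVOL1 ratio was at least 2 in 12 of them and the OVOL2 ratio in 21, where 212 and 392 of all 12068 were. The 20 lower genes had median ratios of 0.564 and 0.543. At or below 0.5 were 7 and 9 of them, where 180 and 334 of all 12068 were. Among both the 7 and the 9 were MIR3179-1, SNORD116-22, SNORA3 and LOC100271831, whose values are uncertain, and GJA5, near the floor. In PC3-Epi, whose ratio the rule held in a range, the median log2 ratio was 0.15 for the higher and -0.05 for the lower genes. Above PC3-EMT14 were 22 of 30 and 9 of 20, where 5754 of all 12068 were. In PC3-EMT14 itself the higher genes ran from 1.02 to 234 FPKM with a median of 6.55, and the lower genes from 1.03 to 131 with a median of 8.26, where the median of all genes past the floor was 11.2. The floor and the PC3-Epi range together keep a member from lying far below 1 FPKM in PC3-EMT14, and no member was below it. The 322 genes that were higher in both OVOL lines and in PC3-Epi are not held to this by the rule. Of them 31.4% were below 1 FPKM in PC3-EMT14, so the contrast follows largely from the rule.

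**Figure D2:**
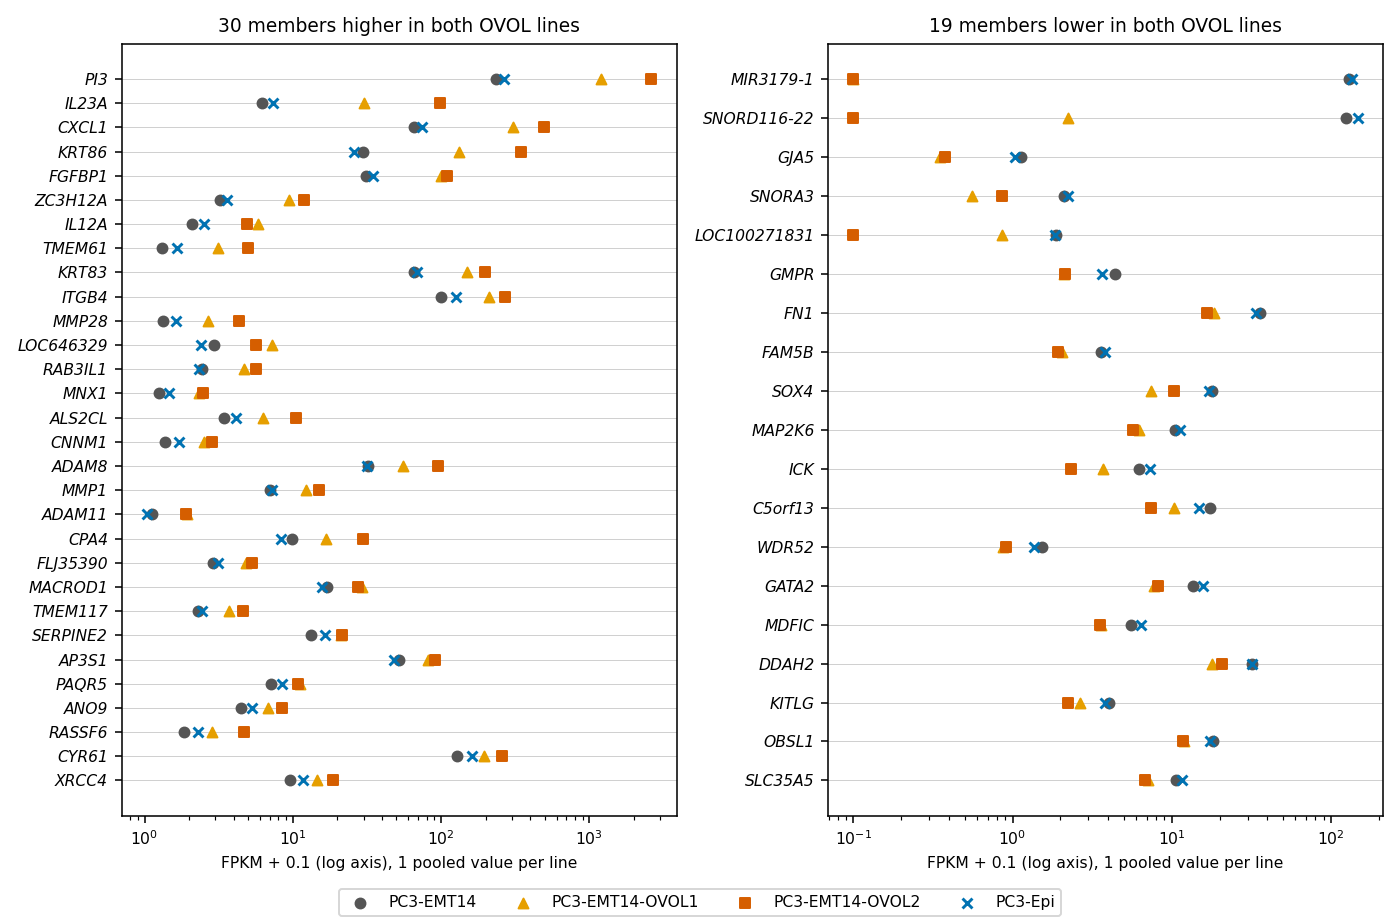
FPKM plus 0.1 on a log axis in each of the 4 lines, 1 pooled value per line, for the 30 members higher (left) and 19 of those lower (right) in both OVOL lines, with PC3-EMT14 from the OVOL1 table. PC3-EMT14 and PC3-Epi lie side by side in every row, as the rule requires, with both OVOL lines to the right of them on the left panel, up to 2619 FPKM for PI3, and to the left of them on the right panel.

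The higher genes included cytokine subunits and a chemokine, which are grouped here by known role and not by a tested theme, as are the genes in the paragraphs that follow. IL23A encodes the p19 subunit of interleukin 23, and it was at 6.14 FPKM in PC3-EMT14, 30.1 in the OVOL1 line, 97.5 in the OVOL2 line and 7.27 in PC3-Epi. Its ratio of 15.8 in the OVOL2 line was the highest of the set. IL12A, the p35 subunit of interleukin 12, was at 1.98 FPKM in PC3-EMT14, 5.70 and 4.78 in the OVOL1 and OVOL2 lines and 2.40 in PC3-Epi. The p40 subunit IL12B, with which both form their secreted cytokines, was at most 0.0051 FPKM in any line, and EBI3, another partner of p35, stood between 0.183 and 0.576 FPKM. The transcripts of both cytokine subunits were thus present without appreciable message for the shared partner.

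CXCL1 is a chemokine that attracts neutrophils through the receptor CXCR2. It was at 65.3 FPKM in PC3-EMT14, 306 in the OVOL1 line, 496 in the OVOL2 line and 73.7 in PC3-Epi. ZC3H12A, also called regnase-1, is an RNase that degrades inflammatory messages, IL6 among them, and it was at 3.13, 9.25, 11.9 and 3.52 FPKM in the same order. Both stood in PC3-Epi near their PC3-EMT14 level, with ratios of 1.105 and 1.098.

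CXCL1 lies in a chemokine cluster on chromosome 4 (hg19, chr4:74735109-74736955), and of the 7 other genes past the floor within 500 kb of it, 6 were higher in both OVOL lines. These neighbours were picked after their values were seen. CXCL3 was at 4.01 FPKM in PC3-EMT14, 15.6 and 37.1 in the OVOL1 and OVOL2 lines and 2.10 in PC3-Epi, and CXCL2 was at 2.58, 8.33, 14.7 and 2.01. CXCL6 was at 41.1, 85.9, 71.3 and 31.7 FPKM. IL8, which shares the receptor with CXCL1, was at 79.8, 291, 538 and 204, and EPGN, an EGF receptor ligand, at 4.62, 15.1, 23.3 and 11.2 FPKM. The neighbours thus divided in PC3-Epi: IL8 and EPGN were higher there than in PC3-EMT14 with ratios of 2.50 and 2.36, CXCL2, CXCL3 and CXCL6 were lower with ratios of 0.772, 0.525 and 0.756, and CXCL1 lay between them. The remaining neighbour was RASSF6, a member of the set 249 kb away, which encodes a scaffold of the RASSF tumour suppressor family and was at 1.76, 2.73, 4.59 and 2.21 FPKM. CXCL1, CXCL2 and CXCL3 are close paralogs, and the reads they share were divided between them by the authors' correction for multiply mapped reads.

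CXCL1 belongs to the list of NF-kappaB targets. Of its 21 genes past the floor 9 were higher and 0 lower in both OVOL lines, beside 3.19% and 2.89% of all genes, and the list medians were 0.44 in the OVOL1 line, 1.23 in the OVOL2 line and 0.04 in PC3-Epi on the log2 scale, against medians of 0.00, -0.05 and -0.03 over all genes past the floor. Among the 9, CXCL1, CXCL2, CXCL3 and IL8 lie in the chemokine cluster described above, and the first of these share reads, so the 9 are not separate cases. In PC3-Epi 7 of the 21 were above the range, 7 inside it and 7 below it, where 2888, 5797 and 3383 of all genes past the floor were, the first 23.9% and the second 48.0%. LTB, encoding lymphotoxin beta, had ratios of 9.45, 45.2 and 10.4 in the OVOL1 line, the OVOL2 line and PC3-Epi, and IL6 had 5.84, 12.7 and 1.82. CSF2, which encodes the growth factor GM-CSF, had ratios of 5.03, 8.89 and 0.788 and missed the set narrowly. TNFAIP3 and RELB, a feedback inhibitor and a subunit of the pathway, lay inside the PC3-Epi range and were higher chiefly in the OVOL2 line, with OVOL1 ratios of 1.31 and 1.32 and OVOL2 ratios of 3.48 and 2.34.

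**Figure D3:**
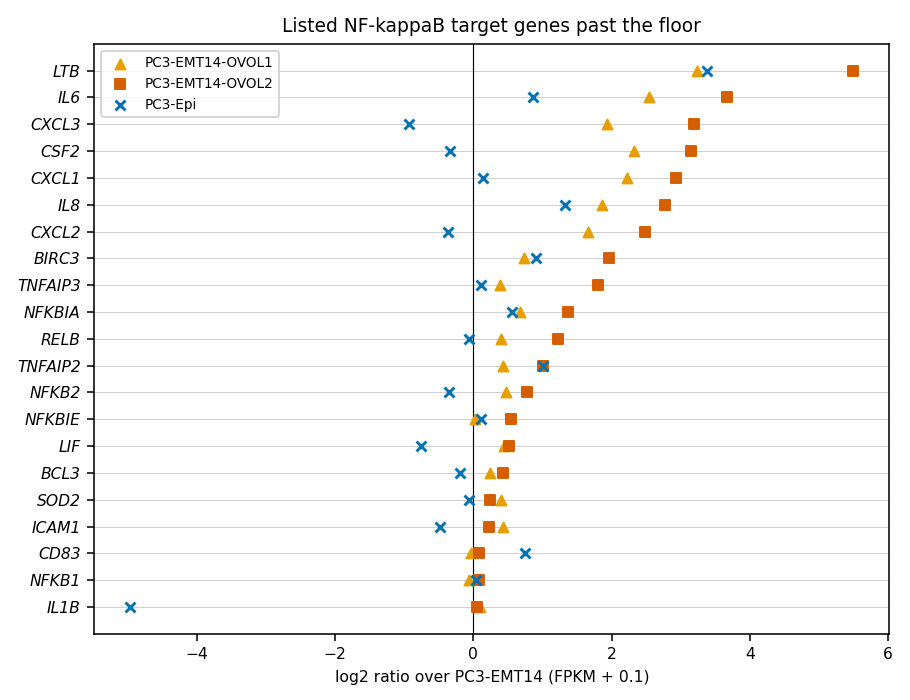
Log2 ratios over PC3-EMT14 (FPKM plus 0.1) in the OVOL1 line, the OVOL2 line and PC3-Epi for the 21 listed NF-kappaB targets past the floor, ordered by the OVOL2 ratio. The 9 genes higher in both OVOL lines include CXCL1, the only one of them inside the PC3-Epi range, and CSF2, at 0.788, lies just below.

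Inhibitors of proteases among the higher genes included PI3 and SERPINE2. PI3 encodes elafin, a secreted inhibitor of neutrophil elastase, and it had the highest FPKM of the set: 234 in PC3-EMT14, 1203 in the OVOL1 line, 2619 in the OVOL2 line and 265 in PC3-Epi. The related inhibitor SLPI was at 25.4, 215, 347 and 157 FPKM, so it was also higher in PC3-Epi, with a ratio of 6.04. SERPINE2, an inhibitor of thrombin and urokinase, was at 13.1, 21.1, 21.4 and 16.4 FPKM. PI3 thus stood far above its PC3-EMT14 level with either factor and SERPINE2 modestly so.

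The collagenase MMP1 was at 6.96 FPKM in PC3-EMT14, 12.2 in the OVOL1 line, 14.8 in the OVOL2 line and 7.18 in PC3-Epi. MMP28, or epilysin, a metalloproteinase of epidermis, was at 1.23, 2.58, 4.21 and 1.54 FPKM. ADAM8, a membrane metalloproteinase of leukocytes and invasive tumours, was at 31.8, 55.7, 95.4 and 31.7. All 3 were higher with OVOL2 than with OVOL1. CPA4, a secreted carboxypeptidase, was at 9.83, 16.7, 29.6 and 8.16 FPKM, and ADAM11, which lacks protease activity, was at 1.02, 1.84, 1.81 and 0.936, near the floor. Of the related metalloproteinases outside the set, named after their values were seen, MMP10 had ratios of 1.508, 3.205 and 0.868 but missed the floor, at 0.582 FPKM in PC3-EMT14 and 0.928 in the OVOL1 line. MMP14, the membrane collagenase, was at 115, 58.2, 72 and 21.9 FPKM, lower in all 3 lines than in PC3-EMT14.

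Hair keratins and an epithelial integrin were among the higher genes. KRT86 was at 29.7 FPKM in PC3-EMT14, 132 in the OVOL1 line, 344 in the OVOL2 line and 25.7 in PC3-Epi, and KRT83, 5.14 kb away on chromosome 12, was at 66.0, 150.5, 197 and 68.6. Both encode type II keratins of the hair shaft. Their values are uncertain, because the near copy KRT81, the most abundant of the family at 1714 FPKM in PC3-EMT14 and 1282 in PC3-Epi, is listed at 0 in both OVOL lines with the status HIDATA, which Cuffdiff gives when a locus has too many fragments to be estimated. The family members KRT85 (8.36, 55.8, 107 and 5.33 FPKM), KRT84 (0.206, 2.41, 5.70 and 0.790) and KRT82 (0.0617, 1.90, 1.89 and 0.0571) were higher in the same 2 lines. The missing estimate of KRT81 thus moved with the higher values of its near copies, and its part in them was not tested. Without KRT83 and KRT86 the set holds 28 higher genes. Besides KRT81, status HIDATA against PC3-EMT14 was given in the OVOL1 line to PLAU and the overlapping C10orf55 and to no other gene.

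ITGB4 encodes the integrin beta 4 chain, which pairs with alpha 6 in hemidesmosomes and binds laminin. It was at 99.4 FPKM in PC3-EMT14, 209 in the OVOL1 line, 269 in the OVOL2 line and 125 in PC3-Epi. The ratio of 1.23 in PC3-Epi placed it at the upper edge of the range. ITGA6, the alpha 6 chain, went the other way, with 80.3, 56.8, 52.9 and 48.1 FPKM.

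Growth factor modulators of the set were FGFBP1 and CYR61. FGFBP1, a secreted protein that frees fibroblast growth factors from the matrix, was at 31.0 FPKM in PC3-EMT14, 99.8 in the OVOL1 line, 109 in the OVOL2 line and 34.4 in PC3-Epi. CYR61 (CCN1), a matricellular protein and a target of YAP and TGF-beta signalling, was at 129, 194, 257 and 161 FPKM. FGFBP1 was about as high with either factor, whereas CYR61 only just passed the OVOL1 threshold.

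The other higher genes had varied roles. ALS2CL, a relative of the Rab5 exchange factor alsin, was at 3.34 FPKM in PC3-EMT14, 6.22 in the OVOL1 line, 10.4 in the OVOL2 line and 4.07 in PC3-Epi. RAB3IL1, an exchange factor for Rab3A, was at 2.33, 4.598, 5.54 and 2.22 FPKM, and AP3S1, the sigma subunit of the AP-3 sorting complex, was at 51.6, 81.7, 90.4 and 47.9. Of these 3 genes AP3S1 had by far the highest level. The homeobox gene MNX1 was at 1.15, 2.23, 2.38 and 1.36 FPKM, CNNM1, of a family of magnesium transport proteins, at 1.28, 2.41, 2.76 and 1.60, and TMEM61, a membrane protein of unknown role, at 1.22, 3.01, 4.92 and 1.55. These 3 were near the floor in PC3-EMT14. PAQR5, a membrane progestin receptor, MACROD1, a hydrolase of ADP-ribose, ANO9, of the anoctamin family, TMEM117, XRCC4, of DNA end joining, and the non-coding entries FLJ35390 and LOC646329 had OVOL1 ratios from 1.51 to 2.44 and OVOL2 ratios from 1.55 to 2.01. FLJ35390 overlaps RASA4P, which had ratios of 0.718, 1.83 and 0.775.

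The lower genes included SOX4, GATA2 and MDFIC, which act in transcription. SOX4, a transcription factor of progenitor cells that TGF-beta induces, was at 17.9 FPKM in PC3-EMT14, 7.36 in the OVOL1 line, 10.2 in the OVOL2 line and 17.2 in PC3-Epi. GATA2, a zinc finger factor that works with the androgen receptor in prostate, was at 13.5, 7.65, 8.14 and 15.7 FPKM. MDFIC, which binds and inhibits transcription factors, was at 5.49, 3.50, 3.46 and 6.31 FPKM. SOX4 was thus lowest in the OVOL1 line, and GATA2 and MDFIC were alike in both OVOL lines.

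Their family members had other patterns. SOX9, at 68.1 FPKM in PC3-EMT14, had ratios of 0.760, 0.584 and 0.634 in the OVOL1 line, the OVOL2 line and PC3-Epi. GATA3 had ratios of 1.36, 1.69 and 4.96. These relatives were named after their values were seen.

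Matrix and cell contact genes included FN1, which encodes fibronectin, a matrix protein widely used as a mesenchymal marker. FN1 was at 36.0 FPKM in PC3-EMT14, 18.4 in the OVOL1 line, 16.5 in the OVOL2 line and 33.8 in PC3-Epi. The epithelial and the mesenchymal line thus had nearly the same FN1 level, while VIM, another mesenchymal marker, was at 265, 183, 76.9 and 42.5 FPKM. KITLG, the ligand of the receptor KIT, was at 3.96, 2.57, 2.12 and 3.74 FPKM, and KIT itself is listed at 0 in all 4 lines. GJA5, a gap junction connexin, was at 1.03, 0.252, 0.277 and 0.933, and it entered the set just above the floor.

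Signalling and metabolic genes were also among the lower genes. MAP2K6, a kinase that activates p38, was at 10.4 FPKM in PC3-EMT14, 6.13 in the OVOL1 line, 5.58 in the OVOL2 line and 11.2 in PC3-Epi. ICK, a kinase of cilia, was at 6.12, 3.60, 2.22 and 7.22 FPKM, and GMPR, a reductase of GMP, at 4.30, 2.01, 2.05 and 3.55. Of these 3, ICK differed most between the OVOL lines. DDAH2, of the enzymes that clear methylated arginines, was at 32.0, 17.9, 20.7 and 31.9 FPKM, and C5orf13 (NREP), a small protein of regenerating nerve, was at 17.3, 10.3, 7.33 and 14.7. The cytoskeletal adaptor OBSL1 was at 18.0, 11.9, 11.7 and 17.3. FAM5B, SLC35A5, of the nucleotide sugar transporter family, and WDR52, a cilium protein, had OVOL1 ratios from 0.5694 to 0.6668 and OVOL2 ratios from 0.539 to 0.640. WDR52 overlaps BOC, which was at 1.96 FPKM in PC3-EMT14 and had ratios of 0.911, 0.714 and 0.275, so its values are uncertain.

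A further 4 lower entries are short or overlap other genes, and their values are uncertain too. In the gene annotation 8 members overlap another coding gene. These are WDR52, SNORA3, LOC100271831, ICK and OBSL1 among the lower genes and ITGB4, XRCC4 and MACROD1 among the higher genes. The uncertainty from overlap holds for all 8. MIR3179-1, a microRNA precursor of 84 bases (hg19, chr16:14995365-14995448), was at 131 FPKM in PC3-EMT14, was listed at 0 in both OVOL lines and was at 136 in PC3-Epi. Its mature product, hsa-miR-3179, is shown because RefSeq (GRCh38.p14) has the identical sequence at 4 places on chromosome 16, with the seed, bases 2 to 8, in capitals.
hsa-miR-3179: aGAAGGGGugaaauuuaaacgu
The entries MIR3179-2 and MIR3179-3 are listed at 0 in every line, so of these entries MIR3179-1 alone carried signal. The values are those of the precursor entries and not of the mature sequence. SNORD116-22, of a snoRNA cluster on chromosome 15, was at 125, 2.13, 0 and 148 FPKM. Its cluster mates were erratic: SNORD116-21 was at 63.5 FPKM in PC3-EMT14 and listed at 0 in the other 3 lines, and SNORD116-4 was at 5.39, 40.3, 4.53 and 0. SNORA3 was at 2.01, 0.454, 0.755 and 2.13 FPKM, in an entry that spans RPL27A, whose ratios were 1.04, 1.03 and 1.02. LOC100271831 was at 1.79, 0.755, 0 and 1.75, and overlaps MAPK3, whose ratios were 1.08, 1.114 and 0.855.

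The direct table of the OVOL2 line over the OVOL1 line adds no independent measurement. Its values were those of the tables used by the rule times a nearly constant factor, 0.989 (median) in the OVOL1 line for the 49 members above 0 there and 0.9996 in the OVOL2 line for the 47 above 0, so a direct ratio is close to the quotient of the 2 ratios that chose the gene. The values below are a description of how the 2 lines compared. The 30 higher genes had a median log2 ratio of 0.35 in it, beside a median of -0.04 over all genes past the floor. The ratio was above 1 in 25 of the 30 and in 5021 of all 12068. It was also above 1 in 262 of the 322 genes that were also higher in PC3-Epi. A ratio of at least 1.5 was reached by 10 of the 30, where 416 of all 12068 (3.45%) did, and a ratio of at most 66.7% by 0 of the 30, where 2.35% of all did. The median ratio of the 322 genes that were also higher in PC3-Epi was 1.38, and that of the 30 members was 1.27. IL23A had the highest ratio, 3.26, followed by KRT86 with 2.62, PI3 with 2.20 and CPA4 with 1.78. IL12A and LOC646329 were higher in the OVOL1 line, with ratios of 0.850 and 0.795.

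The 20 lower genes had a median log2 ratio of -0.00 in the direct table. The ratio was above 1 in 8 and below 1 in 11, where 5021 and 7020 of all 12068 were. SOX4 with 1.39, DDAH2 with 1.17, GJA5 with 1.08 and GATA2 with 1.07 had the highest ratios among the longer genes, and ICK with 0.632 and C5orf13 with 0.722 the lowest apart from LOC100271831. SNORA3, at 1.56, was the 1 of the 20 at or above 1.5, and 3 of the 20 were at or below 66.7%: ICK, SNORD116-22 and LOC100271831. The OVOL2 transgene was far more abundant than the OVOL1 transgene, at 831 against 11.3 FPKM, and its part in the higher ratios of the OVOL2 line was not tested. The lines also carried different lentiviral constructs, which cannot be told apart from the factor here.

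**Figure D4:**
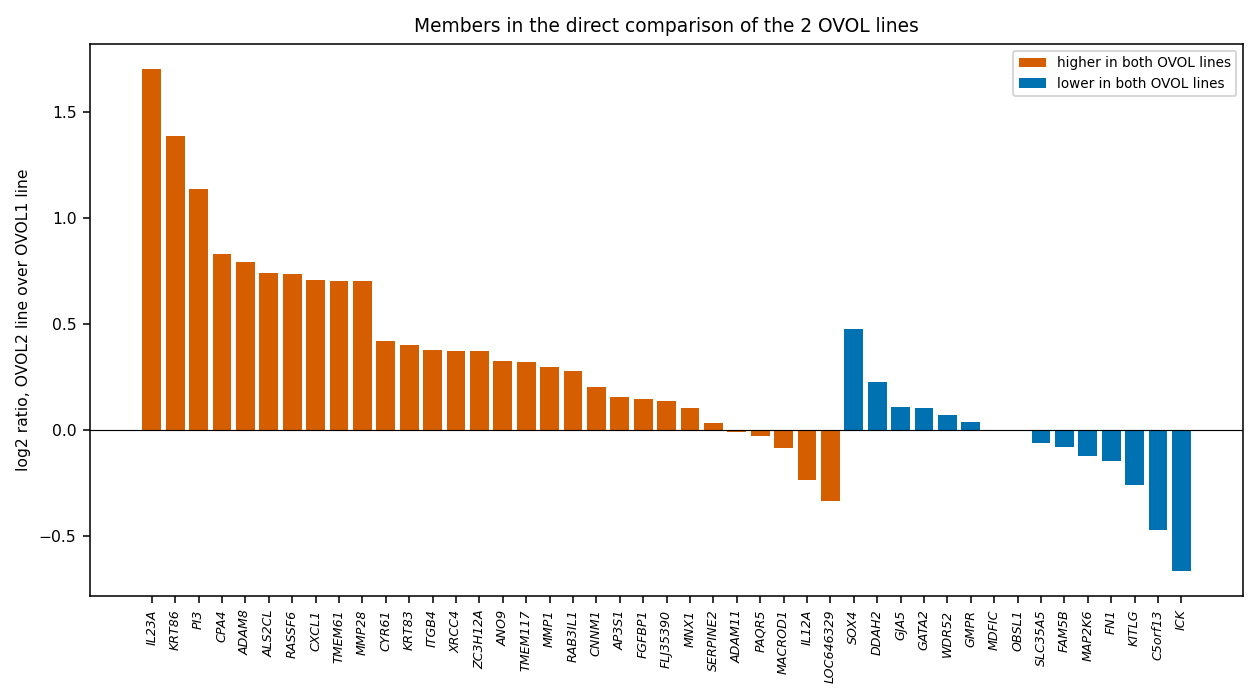
Log2 ratio of the OVOL2 line over the OVOL1 line in the direct table, 1 bar per gene, for the 30 higher members and 15 lower members, without the 3 small RNAs and LOC100271831. Of the higher members 25 bars lie above 0, up to 1.71 for IL23A, and the lower members lie on both sides, from 0.48 for SOX4 to -0.66 for ICK.

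Isoform shares were a further measure that the rule did not use, although they come from the same libraries. Of the 50 genes 21 had at least 2 annotated isoforms. In the OVOL1 line 0 of the 21 had an isoform, with at least 1 FPKM in either line, whose share of the gene moved by 20 percentage points or more from PC3-EMT14, where 2.52% of all 4833 such genes past the floor did. In the OVOL2 line 2 of the 21 did, where 4.53% of all did, and in PC3-Epi 0 of the 21, where 6.54% did.

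The 2 genes were KITLG and GATA2. The main KITLG isoform held 87.0% of the gene in PC3-EMT14, 79.8% in the OVOL1 line, 60.0% in the OVOL2 line and 72.3% in PC3-Epi, so its second isoform was at 0.516, 0.519, 0.848 and 1.03 FPKM while the gene as a whole was lower in both OVOL lines. One GATA2 isoform held 45.7%, 54.5%, 71.6% and 54.8%. Just under the limit lay RASSF6 in PC3-Epi, whose main isoform held 66.1% in PC3-EMT14 and 85.9% in PC3-Epi. ITGB4 had a minor isoform at 14.3% in PC3-EMT14, 6.0% and 5.52% in the OVOL1 and OVOL2 lines and 1.49% in PC3-Epi, where it was at 1.86 FPKM against 14.3 in PC3-EMT14. The main FN1 isoform held 57.1%, 54.1%, 58.6% and 67.7%, and the main C5orf13 isoform 77.8%, 77.9%, 66.0% and 73.5%. For ITGB4 the gene total in PC3-Epi was thus near that of PC3-EMT14 while its minor isoform was not.

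**Figure D5:**
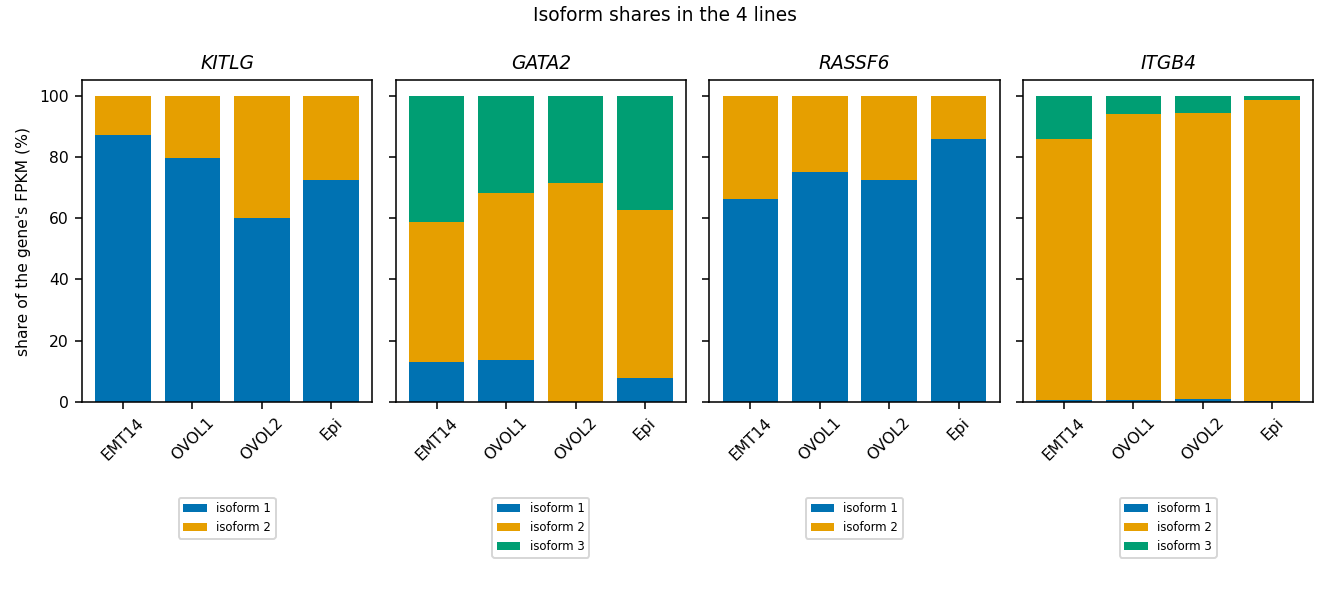
Share of each gene's FPKM (percent) held by each isoform in PC3-EMT14, the OVOL1 line, the OVOL2 line and PC3-Epi for KITLG, GATA2, RASSF6 and ITGB4, 1 pooled value per line. The first KITLG isoform goes from 87.0% in PC3-EMT14 to 60.0% in the OVOL2 line, and the third ITGB4 isoform from 14.3% to 1.49% in PC3-Epi.

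The 50 genes were spread over 14 chromosomes, and 4 pairs lay within 1 Mb of each other: CXCL1 and RASSF6, KRT86 and KRT83, LOC646329 and CPA4, and WDR52 and SLC35A5, each pair moving in 1 direction. Around the 30 higher genes, with members themselves left out and each gene counted once, 25 of 303 genes past the floor within 500 kb (8.25%) were higher in both OVOL lines, where 3.19% of all genes were, and 4 were lower, 1 of them the missing KRT81 estimate. The chemokine cluster around CXCL1 and RASSF6 and the keratin cluster around KRT86 and KRT83 gave 9 of the 25, among them KRT85, a near copy of the member keratins. In the keratin cluster KRT7 was at 241 FPKM in PC3-EMT14, 414, 786 and 779 in the OVOL1 line, the OVOL2 line and PC3-Epi. Around the 20 lower genes 9 of 161 genes (5.59%) were lower, where 2.89% of all genes were, and 5 of the 9 were SNORD116 copies.

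Other lists of genes held few members. For the counts below, the background over all 12068 genes past the floor was 3.19% higher and 2.89% lower in both OVOL lines, with 50 members. Of 16 lists fixed for the work, 4 had a member past the floor: NF-kappaB targets (CXCL1), TGF-beta targets (CYR61 and FN1), mesenchymal genes (FN1) and mucins, S100 and secreted epithelial proteins (PI3). The TGF-beta targets moved both ways, with 3 of 16 higher and 5 lower in both OVOL lines. Of 24 mesenchymal genes 2 were higher and 7 lower, and FN1 was the 1 of those 7 inside the PC3-Epi range. Of 20 mucins, S100 and secreted proteins 10 were higher and 0 lower. The 35 epithelial genes had 26 higher in both OVOL lines, 0 lower and no member, and 31 of the 35 were above the range in PC3-Epi, where 23.9% of all genes past the floor were. The cell cycle list had 0 of 26 higher or lower in both OVOL lines and 23 of 26 above the range in PC3-Epi, beside the same 23.9%. The remaining 10 lists, of 3 to 37 genes past the floor, had no member. In them from 0 to 7 genes were higher and from 0 to 5 lower in both OVOL lines. The 7 were among 16 keratinocyte and cornified envelope genes, with 1 lower. The 5 were among 37 receptor tyrosine kinases and ligands, with 4 higher.

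At the edges of the rule small differences decided membership. For the higher threshold of 1.5, XRCC4 (1.506) and CYR61 (1.507) lay just inside and NALCN (1.499) and SLC6A6 (1.497) just outside. For the lower threshold of 66.7%, SLC35A5 (0.6668) and OBSL1 (0.6631) were inside and STK36 (0.6694) and TXK (0.6705) outside. At the upper PC3-Epi edge TMEM61 (1.233) and ITGB4 (1.230) were inside and TRIM47 (1.289) and PLEKHF1 (1.298) outside, and at the lower edge LOC646329 (0.803) and GMPR (0.813) were inside and GRAMD1C (0.799) and ZNF461 (0.790) outside. At the floor, GJA5 (1.02 FPKM) and ADAM11 (1.05) were inside, and CNGA1 (0.985) and LOC148709 (0.965) were outside.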

How the data were processed

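RNA from 10 samples in 4 groups was sequenced as paired-end reads. Per the labels and the methods, the authors used TopHat for alignment to the transcriptome of hg19, and Cuffdiff to compare 2 groups at a time, with the samples of a group pooled. They deposited 8 tables, 4 of genes and 4 of isoforms, with 1 FPKM value per group. These tables also hold the authors' log2 fold change, test statistic, p-value, q-value and significance call, none of which was used. The number of unused columns with per-sample values is 0.

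Ratios were computed in Python 3.11.15 with numpy 2.4.6 and pandas 2.3.3, with a pseudocount of 0.1 FPKM and a floor of 1 FPKM on the larger value of each pair, so a log2 ratio understates the change of low genes. Plots were drawn with matplotlib 3.10.9. The step that applies the rule was tested on simulated tables. No test was made here, since the values are pooled over samples. The members, the gene lists and the measures were chosen with earlier results of these data known. Named were the members that led in the smaller OVOL ratio, in level, in the direct ratio or in isoform shift, those in a list and those at a threshold. The values of 1 lower member are not reported here, although the counts and medians include it. The other members, relatives and neighbours were named after their values were seen. Older symbols were matched through RefSeq synonyms on the same locus, and 45 of the 50 members were found in GENCODE on GRCh37, 44 of them protein coding. Where a gene had several starts in the RefSeq promoter table, the first listed was used. Reads from overlapping genes and near copies cannot be told apart here. Genes were counted again under other pseudocounts, floors, thresholds, scalings and filters.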

Additional observations from a re-analysis of the deposited data

How the results depend on the processing

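No paired analysis was possible because each group has 1 pooled value, and for the same reason no sample could be left out. A count or share was held to have moved when it changed by over 1.5 times. With no floor there were 94 higher and 37 lower members and 10.6% of the OVOL-responsive genes lay in the PC3-Epi range, and with a floor of 5 FPKM there were 17 and 12 members. A PC3-Epi range of 90% to 111% left 12 higher and 12 lower members (3.27%), and a range of 66.7% to 150.0% gave 64 and 45 (14.9%). OVOL ratios of 2 and 0.5 left 11 and 6, and ratios of 125% and 80% gave 170 and 153 (17.4%). The counts stayed within 1.5 times without a pseudocount, with a pseudocount of 1, with a floor of 0.5 FPKM, after recentring each table on its median ratio, with status OK required, without small RNAs, with values rebuilt from isoforms and with 1 common PC3-EMT14 value, and without KRT83 and KRT86, which was chosen after seeing the data. The genes were not all the same, however: 23 of the 30 higher and 14 of the 20 lower members remained with a pseudocount of 1, and 27 and 17 after recentring. A shift of 15 points instead of 20 gave 1 member with a shifted isoform in PC3-Epi in place of 0, and a shift of 30 points gave 0. The direct-table medians moved by less than 1.5-fold in each setting tried. Of the log2 ratios of single members, 7 moved by over 1.5-fold with a pseudocount of 1, all of GJA5, SNORA3, SNORD116-22, MIR3179-1 or LOC100271831, and none changed its side. The depth behind these values is unknown.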
